A study of Felis catus with 36 samples.

Results

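ENSFCAG00000010822 is 1 gene of the 26681 counted in each of 36 cat libraries, and it was measured in all of them. It was chosen by its measured Banded minus SHAM differences, which are below 0 at 1 month in left ventricle as well as skeletal muscle and near 0 at 4 months. Those differences are therefore given here as a description with no test. The files name genes by Ensembl identifier only. Of the 26681 identifiers, 0 matched the 39307 genes of the RefSeq table at hand (assembly F.catus_Fca126_mat1.0), so no symbol, position, sequence or role is given for this gene or for the genes set beside it. Tissue markers are known by symbol and could not be checked for the same reason.

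The libraries hold messenger RNA of left ventricle or skeletal muscle (the muscle is not named) from cats labelled Aortic Banding and feline model of HFpEF (heart failure in which the ejection fraction is preserved), or from SHAM controls. Per tissue there were 5 Banded libraries at 1 month, 3 SHAM libraries at 1 month, 5 Banded libraries at 4 months and 5 SHAM libraries at 4 months. The labels give no age, sex, breed or batch, and do not tie libraries to animals, so a p-value here measures the spread between libraries, which may be technical. They also give no other treatment shared by the groups.

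A band around the aorta makes the left ventricle pump against a raised load, and the heart muscle thickens in answer. In HFpEF the ventricle still empties well but fills poorly, and skeletal muscle, which lies outside the loaded chamber, is studied in this disease because exercise capacity falls. Libraries of whole tissue do not separate fewer cells of a type from less RNA per cell.

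Raw counts of the gene ran from 840 to 1563 per library in left ventricle, out of library totals of 14.6 to 22.3 M gene counts (M, mega). In skeletal muscle they ran from 688 to 1427, out of 21.5 to 34.9 M. Counting error alone was then 2.53% to 3.81% of a value (the inverse square root of the count). Levels below are CPM, the count divided by the library total in M, where each tissue's totals were first adjusted with edgeR's TMM factors, which set most genes level between libraries.

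At 1 month the gene was low in Banded left ventricle. The Banded libraries 1 to 5 stood at 48.2, 51.5, 46.0, 43.4 and 46.9 CPM, and the SHAM libraries 1 to 3 stood at 70.2, 72.7 and 63.5 CPM. Every Banded library lay below every SHAM library. Banded left ventricle averaged 47.2 ± 2.97 CPM (SD, n = 5) and SHAM left ventricle 68.8 ± 4.72 CPM (SD, n = 3), a fitted log2 fold change of -0.54, or 0.686-fold. Of the 13976 genes tested in this tissue, 3.46% had every Banded library below every SHAM library at 1 month.

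Skeletal muscle at 1 month showed the same order. The Banded libraries 1 to 5 stood at 28.7, 23.2, 27.1, 30.8 and 35.2 CPM, and the SHAM libraries 1 to 3 at 41.0, 49.97 and 48.1 CPM. Again no Banded library reached the lowest SHAM library. Banded muscle averaged 29.0 ± 4.43 CPM (SD, n = 5) and SHAM muscle 46.4 ± 4.75 CPM (SD, n = 3), a log2 fold change of -0.68, or 0.625-fold. The share of genes with every Banded library below every SHAM library was 3.78% of 13480.

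In 12990 genes tested in both tissues, 42 (0.323%) had every Banded library below every SHAM library at 1 month in each tissue, and ENSFCAG00000010822 is 1 of them. In 41 of the 42 (0.316% of the genes tested), this gene included, the groups overlapped in both tissues at 4 months. The log2 fold change at 1 month was further below 0 than that of ENSFCAG00000010822 in 20 of the other 41 genes in left ventricle, in 5 in skeletal muscle and in 3 in both. Across the 42 genes the log2 fold change ran from -1.62 to -0.14 in left ventricle, with a median of -0.54, and from -0.82 to -0.20 in skeletal muscle, with a median of -0.45. The gene was picked for this pattern, so its place among the 42 is no support for it.

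**Figure D1:**
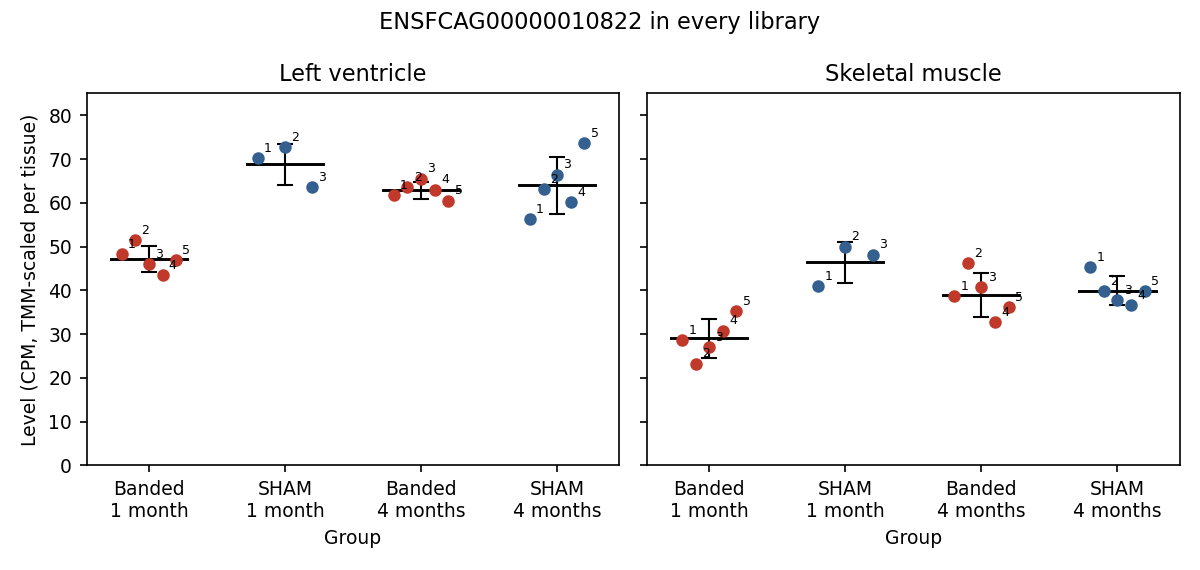
Level of ENSFCAG00000010822 in CPM (vertical axis, linear from 0) in each library, by group, in left ventricle and in skeletal muscle. Points are libraries with their number, lines are group means and bars are SD. At 1 month all Banded points, from 43.4 to 51.5 CPM in left ventricle and from 23.2 to 35.2 CPM in skeletal muscle, lie below the SHAM points, and at 4 months the groups overlap.

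At 4 months the groups lay at like levels. In left ventricle the Banded libraries 1 to 5 stood at 61.8, 63.5, 65.6, 63.0 and 60.5 CPM, and the SHAM libraries 1 to 5 at 56.3, 63.2, 66.5, 60.1 and 73.7 CPM. All Banded values lay inside the range of the SHAM values. The means were 62.9 ± 1.90 CPM in Banded and 64.0 ± 6.61 CPM in SHAM libraries (SD, n = 5 each), with a log2 fold change of -0.02, and 1.59% of genes did not overlap in either direction.

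In skeletal muscle at 4 months the Banded libraries 1 to 5 stood at 38.7, 46.3, 40.7, 32.8 and 36.1 CPM. The SHAM libraries 1 to 5 stood at 45.3, 39.8, 37.8, 36.7 and 39.8 CPM. Here the Banded values spread to both sides of the SHAM values. The means were 38.9 ± 5.06 CPM in Banded and 39.9 ± 3.33 CPM in SHAM libraries (SD, n = 5 each), with a log2 fold change of -0.04, where 1.16% of genes did not overlap.

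The order of the group means was the same in both tissues, with Banded 1 month lowest, then Banded 4 months, SHAM 4 months and SHAM 1 month. In left ventricle Banded 4 months exceeded Banded 1 month by 15.7 CPM, which is 5.28 times the larger SD of the pair, and the libraries did not overlap, as for 8.71% of genes whose Banded libraries were all higher at 4 months. The next steps up, of 1.10 CPM to SHAM 4 months and of 4.84 CPM to SHAM 1 month, were within the larger SD of 6.61 CPM. In skeletal muscle the step from the lowest group to Banded 4 months was 9.93 CPM, or 1.96 times the larger SD, and the libraries overlapped. The step to SHAM 4 months was 0.974 CPM, within the SD of 5.06 CPM. The step to SHAM 1 month was 6.46 CPM, against an SD of 4.75 CPM, and those libraries overlapped.

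The gene was steady within groups of left ventricle. Its pooled SD within groups was 0.102 on the log2 CPM scale, and the median SD of the 1695 genes within 0.5 log2 CPM of its mean was 0.263. Only 1.18% of those genes had a lower SD. In skeletal muscle its SD was 0.176, against a median of 0.224 in 1539 such genes, and 25.9% had a lower SD. The coefficient of variation ran from 3.03% in Banded left ventricle at 4 months, near counting error, to 15.3% in Banded skeletal muscle at 1 month. The same libraries gave the differences that chose the gene, so these values are a description too.

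Libraries of the groups also differed in other measures at 1 month. In left ventricle the share of counts in the 10 top genes was 13.5% to 17.9% in Banded and 16.3% to 20.3% in SHAM libraries, and TMM factors were 1.03 to 1.20 in Banded and 0.889 to 1.13 in SHAM libraries. In skeletal muscle the shares were 25.4% to 36.7% in Banded and 27.6% to 34.4% in SHAM libraries, with factors of 0.948 to 1.16 in Banded and 0.923 to 1.11 in SHAM libraries. The share of each file's total, unassigned reads included, that was assigned to genes was 52.5% to 63.8% in Banded and 52.8% to 54.9% in SHAM left ventricle, and 59.1% to 73.2% in Banded and 56.3% to 71.7% in SHAM skeletal muscle. The number of genes with a count above 0 also separated the groups in skeletal muscle at 1 month, in the direction opposite to the gene. It was 15960 to 16319 in Banded and 15625 to 15852 in SHAM libraries. In left ventricle it overlapped, with 16115 to 16427 in Banded and 15910 to 16211 in SHAM libraries. The part of these measures in the gene's difference was not tested beyond the scalings that follow. With library totals as the only scaling, Banded left ventricle ran from 47.3 to 60.8 CPM and SHAM left ventricle from 56.5 to 82.1 CPM, so the groups overlapped. Skeletal muscle still did not, with 26.4 to 33.4 CPM in Banded and 44.4 to 48.4 CPM in SHAM libraries.

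That scaling moved the median Banded minus SHAM difference of all genes at 1 month by 0.13 for left ventricle and by 0.11 for skeletal muscle on the log2 scale. Measured from the median of all genes, ENSFCAG00000010822 differed by -0.53 with TMM and by -0.54 with library totals in left ventricle. In skeletal muscle it differed by -0.70 under both. Leaving out any 1 library gave log2 fold changes from -0.58 to -0.50 in left ventricle at 1 month and from -0.76 to -0.61 in skeletal muscle. At 4 months the sign was not fixed, with values from -0.05 to 0.05 for left ventricle and from -0.11 to 0.02 for skeletal muscle.

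**Figure D2:**
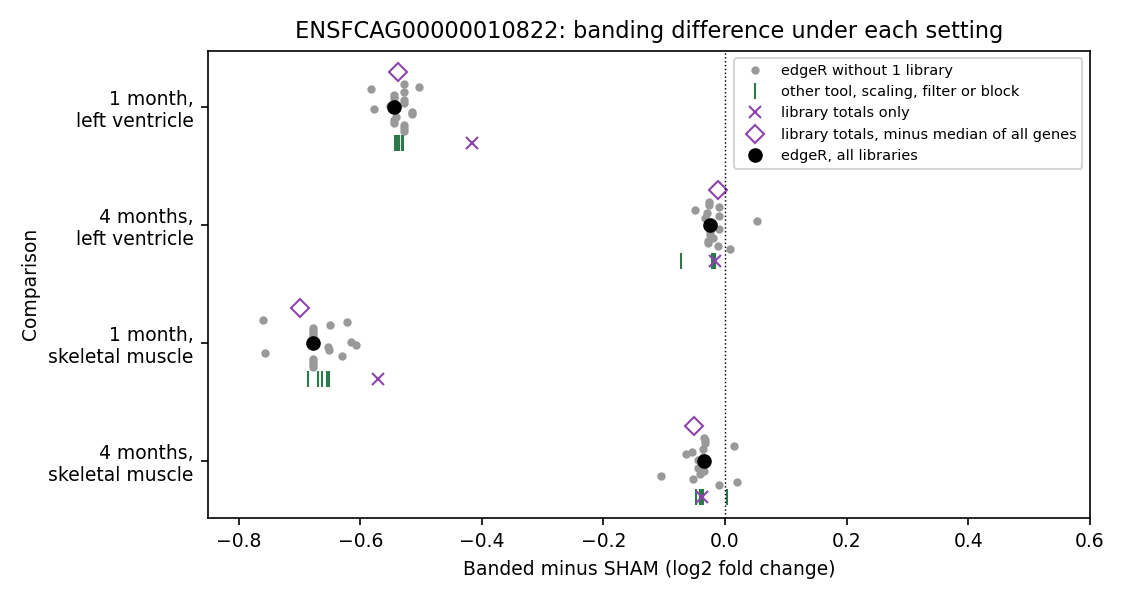
Banded minus SHAM difference of ENSFCAG00000010822 on the log2 scale (horizontal axis) for each tissue and time (rows). Black points are edgeR on all libraries, grey points leave out 1 library each, ticks are other tools and settings, crosses use library totals, and diamonds are library totals measured from the median of all genes. Values at 1 month lie between -0.76 and -0.42, and values at 4 months lie on both sides of 0.

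The authors' deposited tables give close values for the comparisons of 1 month. In the authors' deposited tables, Banded minus SHAM at 1 month has a log2 fold change of -0.53 (SE 0.0933) for left ventricle and -0.66 (SE 0.135) for skeletal muscle. For 4 months the authors' deposited tables list -0.07 for left ventricle and 0.0028 for skeletal muscle. A DESeq2 fit of the deposited counts gave -0.02 for left ventricle and -0.04 for skeletal muscle. In another fit, library 1 of SHAM 4 months was replaced by a copy of library 1 of SHAM 1 month. That library also stayed in its own group, so both SHAM groups held it. This fit gave -0.07 for left ventricle and 0.0038 for skeletal muscle. Over 13737 left ventricle genes that replacement lowered the median distance from the authors' deposited table at 4 months to 0.0010, against 0.0863 with the counts as deposited.

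Time was tested over both treatments together, with Banded and SHAM weighted by their numbers of libraries. These weights were set so that its sampling error is uncorrelated with that of the differences that chose the gene. Its value is not free of those differences. The low Banded level at 1 month enters it with more weight (5 of 8 libraries) than Banded has at 4 months (5 of 10). The pooled value thus mixes change with time and the make-up of the groups, and these were not separated. The time test is therefore no separate support for the pattern. In left ventricle the gene averaged 63.4 ± 4.62 CPM at 4 months (SD, n = 10) and 55.3 ± 11.7 CPM at 1 month (SD, n = 8). The pooled log2 difference was 0.22 (SE 0.0704), with an adjusted p of 0.0185 from edgeR's quasi-likelihood test. Among all genes tested 18.6% were called higher at 4 months and 38.1% in either direction, so a call here is common. The pooled value came with unlike values by treatment, a log2 fold change of 0.41 in Banded and -0.11 in SHAM libraries. Their difference is the pattern that chose the gene and was not tested. The SHAM value was about as large as its SE of 0.108, and it stayed below 0 in every setting. With 1 library left out it ran from -0.15 to -0.046. Of the SHAM 4-month libraries, leaving out library 1 gave -0.046 and leaving out library 4 gave -0.063. Leaving out library 2 of SHAM 1 month gave -0.064. DESeq2 after the replacement described above, where the SHAM groups share a library, gave -0.037. With library totals only the values were 0.17 in Banded and -0.23 in SHAM libraries. Measured from the median of all genes, they were 0.40 in Banded and -0.07 in SHAM libraries with TMM, and 0.40 in Banded and -0.08 in SHAM libraries with library totals.

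The call in left ventricle was lost when some single Banded 1-month libraries were left out. The adjusted p with edgeR was 0.0533 without library 1, 0.055 without library 3, 0.0783 without library 4 and 0.0649 without library 5. The weights follow the libraries left, so each of these fits also gave the low Banded group less weight at 1 month. The part of that change of weight in the lost calls was not tested. With library totals only, the value was 0.018 (adjusted p 0.895 with edgeR), while the median of all genes moved by -0.20. Measured from that median the gene stood at 0.23 with TMM and 0.22 with library totals.

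In skeletal muscle the gene averaged 39.4 ± 4.07 CPM at 4 months (SD, n = 10) and 35.5 ± 9.92 CPM at 1 month (SD, n = 8). The log2 fold change was 0.19 (SE 0.0885) and did not pass, with an adjusted p of 0.0824 with edgeR, where 51.5% of genes were called. It was 0.43 in Banded and -0.22 in SHAM libraries, and with library totals only 0.28 in Banded and -0.26 in SHAM libraries. The pooled effect passed without SHAM 1-month library 1, 2 or 3, with adjusted p values of 0.0474, 0.0261 and 0.0303 with edgeR, and without Banded 4-month library 4, with 0.0488. These fits also changed the weights. Without a SHAM 1-month library the low Banded group had more weight at 1 month, and the part of this in the calls was not tested. DESeq2 called it (adjusted p 0.0382), and so did edgeR with relative log expression (RLE) scaling (adjusted p 0.0479). The time effect in left ventricle minus that in skeletal muscle was -0.05 (SE 0.109, adjusted p 0.783 with edgeR), where 29.2% of genes were called.

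The level in left ventricle relative to skeletal muscle depended on how the tissues were scaled. With all 36 libraries scaled together by TMM, the gene averaged 43.3 ± 8.68 CPM in left ventricle and 44.3 ± 12.1 CPM in skeletal muscle at 1 month (SD, n = 8 each). At 4 months it averaged 49.2 ± 3.47 CPM in left ventricle and 51.5 ± 5.37 CPM in skeletal muscle (SD, n = 10 each). The log2 differences were -0.02 (SE 0.0811, adjusted p 0.857 with edgeR) at 1 month and -0.07 (SE 0.0725, adjusted p 0.41 with edgeR) at 4 months, where 62.6% and 76.5% of genes were called.

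With library totals only, the tissue differences were 0.71 and 0.65, higher in left ventricle, with adjusted p values of 6.01e-08 and 2.85e-08 with edgeR. That scaling moved the median of all 14579 genes by 0.72 at 1 month and by 0.71 at 4 months. Measured from the median of all genes, the gene stood at -0.12 with TMM and -0.11 with library totals at 1 month, and at -0.17 under both at 4 months. The lower CPM values of skeletal muscle given above, which were scaled within the tissue, carry the same shift.

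Libraries of the tissues share numbers within each condition, and the gene's deviations from its group means were compared between them. Over 18 pairs Pearson's r was -0.27 (permutation p = 0.263, two-sided, numbers permuted within conditions) and Spearman's rho was -0.176 (permutation p = 0.512). These were 2 tests of the same relation, and neither passes without adjustment. Without the 2 pairs farthest from the median in left ventricle r was -0.213 (permutation p = 0.494). With library totals only, r was 0.0873, so its sign depended on the scaling.

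Genes that followed the gene most closely were ranked by the lower of 2 correlations on log2 CPM, Pearson's r over the 18 left ventricle libraries and over the 18 skeletal muscle libraries. All genes share the libraries, their scaling factors and the group structure, so these correlations describe likeness and carry no test. In 11084 other genes with a mean of at least 1 CPM in each tissue the median of the lower r was -0.143, and 99% lay below 0.58. In both tissues r was 0.7 or more for 13 genes and -0.7 or less for 0 genes.

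The 5 closest genes were ENSFCAG00000008715 (r of 0.799 in left ventricle and 0.824 in skeletal muscle), ENSFCAG00000002142 (0.774 and 0.852), ENSFCAG00000011716 (0.766 and 0.889), ENSFCAG00000011415 (0.766 and 0.73) and ENSFCAG00000005241 (0.726 and 0.73). The next gene had a lower r of 0.725, so the list has no gap at its end. After group means were removed, r for these 5 genes ran from 0.227 to 0.464 in left ventricle and from 0.475 to 0.782 in skeletal muscle. The 5 genes were picked on these same libraries, and by the lower r after group means were removed the last of them ranked 824 of 11084.

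ENSFCAG00000008715 averaged 47.0 ± 6.01 CPM in Banded and 61.0 ± 10.2 CPM in SHAM left ventricle at 1 month (SD, n = 5 and 3). At 4 months it averaged 60.5 ± 6.45 CPM in Banded and 65.2 ± 4.22 CPM in SHAM left ventricle. In skeletal muscle ENSFCAG00000008715 averaged 50.7 ± 4.98 CPM in Banded and 65.3 ± 8.86 CPM in SHAM libraries at 1 month, and 56.8 ± 4.27 CPM in Banded and 56.4 ± 3.97 CPM in SHAM libraries at 4 months. Its Banded and SHAM libraries overlapped in both tissues and at both times.

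None of the 5 genes had Banded libraries below all SHAM libraries at 1 month in both tissues, as ENSFCAG00000010822 did. ENSFCAG00000002142 did so in left ventricle, with 42.0 to 51.6 CPM in Banded and 56.9 to 73.9 CPM in SHAM libraries. ENSFCAG00000011716 did so in skeletal muscle, with 22.1 to 28.5 CPM in Banded and 30.2 to 34.9 CPM in SHAM libraries. ENSFCAG00000005241 also did so in skeletal muscle, by a very narrow margin, with 28.5 to 39.3 CPM in Banded and 39.4 to 49.5 CPM in SHAM libraries. ENSFCAG00000011415 overlapped in both, with means in left ventricle of 39.8 CPM in Banded and 57.4 CPM in SHAM libraries and in skeletal muscle of 36.8 CPM in Banded and 48.2 CPM in SHAM libraries. All these genes overlapped between Banded and SHAM at 4 months in both tissues.

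The 2 genes most opposite in pattern were ENSFCAG00000004299 (r of -0.723 over left ventricle and -0.659 over skeletal muscle libraries) and ENSFCAG00000022513 (-0.654 and -0.758). At 1 month ENSFCAG00000022513 stood at 10.8 to 17.0 CPM in Banded and 4.23 to 10.7 CPM in SHAM left ventricle, and at 4.75 to 7.39 CPM in Banded and 2.63 to 4.17 CPM in SHAM skeletal muscle. Its Banded libraries thus lay above all SHAM libraries in each tissue, by a narrow margin in left ventricle. ENSFCAG00000004299 did so as well, at a low level, with 1.76 to 3.56 CPM in Banded and 1.12 to 1.49 CPM in SHAM left ventricle and 2.97 to 4.93 CPM in Banded and 1.55 to 2.31 CPM in SHAM skeletal muscle. Both genes were picked for running against a gene whose groups separate at 1 month, so their own separation is no support for the pattern. The share of all genes with this order is not given here. By 4 months both genes overlapped between the groups in each tissue. With group means removed, ENSFCAG00000022513 had an r of 0.171 over left ventricle and of -0.702 over skeletal muscle libraries.

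**Figure D3:**
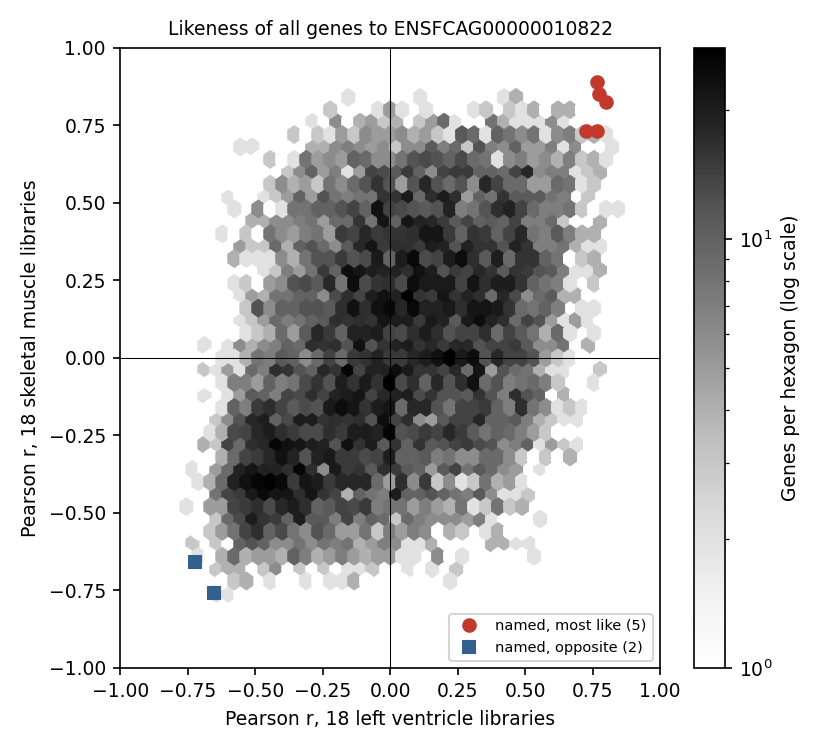
Pearson's r of each gene with ENSFCAG00000010822 over 18 left ventricle libraries (horizontal axis) and 18 skeletal muscle libraries (vertical axis), with grey hexagons for 11084 genes. The 5 closest genes (circles) have an r of at least 0.726 in both tissues, and the 2 opposite genes (squares) have an r of -0.654 or less in both.

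**Figure D4:**
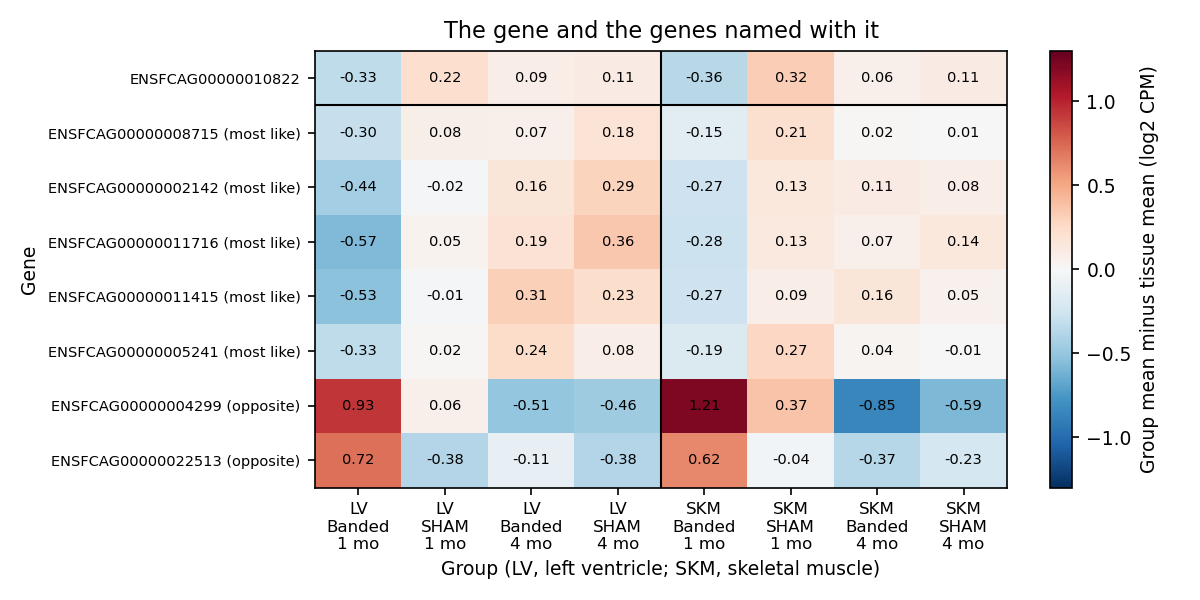
Group mean of log2 CPM minus the mean of all libraries of the tissue, for ENSFCAG00000010822 and the 7 genes named with it (rows), in each group (columns). Banded 1 month is the lowest group in both tissues for the gene and for the 5 closest genes, and the highest group for the 2 opposite genes.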

How the data were processed

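Counts of 36 libraries were used as deposited. The authors' count values are whole numbers, not normalized, and 5 summary lines per file were left out. Tools named in the submitters' processing notes are DESeq2 1.22.2, HTSeq 0.11.2 and HISAT2 2.1.0, and the build and annotation are not given in the sources used here. The authors' deposited tables hold log2 fold changes and their standard errors. Per the labels' protocols libraries were stranded, from total RNA.

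Libraries were grouped by their titles. Under R 4.3.3, edgeR 4.0.16 (filterByExpr, TMM, quasi-likelihood) was fitted to the 18 libraries of each tissue, and to all 36 for tissue comparisons, with a mean per group. Tests were two-sided, with Benjamini-Hochberg adjustment over all genes tested and a threshold of 0.05. Log2 CPM used a prior count of 2. Permutation tests used 100000 draws. DESeq2 1.42.0, limma 3.58.1 voom, other scalings, no filter, a replicate block and each library left out were alternatives. The replacement of a SHAM library was an alternative chosen after seeing the data. Fits were checked on simulated data. None of 66 pairs of libraries within groups agreed within counting noise (lowest chi-square per degree of freedom 36.3).

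The 5 closest and 2 most opposite genes were named by the rule given beside them. The gene and this rule were chosen with earlier results of these data known. Intervals of counts cover counting error only.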

Additional observations from a re-analysis of the deposited data

Results flagged for a closer look

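In skeletal muscle the change from 1 to 4 months went opposite ways by treatment for ENSFCAG00000010822. Each Banded 4-month library lay above the Banded 1-month mean, by 9.93 CPM on average, and each SHAM 4-month library lay below the SHAM 1-month mean, with an average difference of -6.46 CPM. This difference was not tested, because it is part of the pattern that chose the gene. ENSFCAG00000008715 did the same there, with 6.10 CPM in Banded and -8.99 CPM in SHAM libraries, also not tested. That gene was picked for its likeness to ENSFCAG00000010822 over these same libraries, so its pattern is no support. For both genes the 1-month and 4-month libraries overlapped within each treatment.

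Single libraries stood far from the rest of their group for 4 genes, in 48 groups of 5 libraries checked over 8 genes, and chance gives about 1 in 20. ENSFCAG00000008715 stood at 72.4 CPM in SHAM left ventricle library 4 at 4 months, where the others ran from 62.3 to 65.1 CPM. ENSFCAG00000002142 stood at 42.0 CPM in Banded left ventricle library 4 at 1 month, where the others ran from 49.0 to 51.6 CPM. ENSFCAG00000011415 stood at 48.8 CPM in Banded left ventricle library 2 at 1 month, against 36.3 to 38.6 CPM in the others. ENSFCAG00000022513 stood at 7.39 CPM in Banded skeletal muscle library 2 at 1 month, against 4.75 to 5.401 CPM in the others. No library of ENSFCAG00000010822 stood apart by this measure.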

How the results depend on the processing

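Values here are log2 differences of ENSFCAG00000010822 unless a count or correlation is named. With library totals only, the time effect in left ventricle was 0.018, the tissue difference was 0.71 at 1 month and 0.65 at 4 months, and the correlation between tissues was 0.0873. The shift of the median of all genes is given above with the time and tissue values. The time effect in skeletal muscle was 0.22 with DESeq2 and 0.22 with RLE scaling, both called. The tissue difference of the time effect was 0.013 with DESeq2 and 0.015 with RLE scaling. With 1 library left out, the time effect ran from 0.18 to 0.28 in left ventricle and from 0.11 to 0.27 in skeletal muscle, the tissue difference at 1 month from -0.096 to 0.058, and the tissue difference of the time effect from -0.12 to 0.030. The weights of Banded and SHAM changed with the library left out, which is part of these ranges.

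Of the 5 closest genes, 2 stayed among the 5 highest with Spearman's rho, 2 with r over all 36 libraries after tissue means were removed, 1 with library totals, 0 with residuals from group means, and 2 to 5 with 1 library left out. Of the 2 opposite genes, 1 stayed among the 2 lowest with Spearman's rho, 1 over all 36 libraries, 1 with RLE scaling, 0 with library totals, 0 with residuals, 0 with a minimum mean of 0.1 or 10 CPM, and 0 to 2 with 1 library left out. The identity of these genes thus depended on the measure. For ENSFCAG00000022513 the higher r was 0.171 with residuals.

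With library number as a replicate block the time effect was 0.22 in left ventricle (adjusted p 0.034 with edgeR) and 0.19 in skeletal muscle (adjusted p 0.117), and no call of the gene changed. Within a tissue, same-numbered libraries of different groups correlated above 0.1 across genes in 16 of 48 pairs, so the numbers were not taken as pairs there. Between tissues, same-numbered libraries of a condition did so in 13 of 18 pairs. Of the left ventricle libraries, 13 of 18 were closest to the muscle library of their own number. The match was sought only among the 3 or 5 muscle libraries of the same condition. That is a hint from the data that tissues may share animals, which the labels do not state, and the tissue differences given above treat the 36 libraries as independent. With condition and number as the block they were -0.012 at 1 month (adjusted p 0.924 with edgeR) and -0.062 at 4 months (adjusted p 0.506), and that of the time effect was -0.05 (adjusted p 0.804). Counts of genes called stayed within 1.5 times in every comparison tested. SHAM at 1 month has 3 libraries, which limits each difference at 1 month. The cause of these dependences was not tested.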
